A study of Saccharomyces cerevisiae with 24 samples.

Results

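The strains described here are the viable yeast deletion strains that each lack 1 gene for a protein of the cytosolic small (40S) ribosomal subunit. Members were taken as every barcode probe whose open reading frame is 1 of 49 RPS genes, 24 pairs of A and B paralogs plus RPS12, which has no paralog. Of these, 47 strains had a probe, among 5526 strains in all. The genes RPS8B and RPS26A had none and are not analysed here. The 47 strains were read by 144 probes, of which 48 were uptag probes, 45 downtag probes and 51 probes for mutated barcodes. The strains lacking RPS1B, RPS17A and RPS18B had uptag probes alone.

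The study asked which deletions let yeast persist when Mdm33, a protein of the mitochondrial inner membrane whose excess arrests growth, is overproduced. A haploid pool of the BY4742 background (mating type alpha), in which every strain carries a gene deletion marked by an uptag and a downtag barcode, was transformed either with pYX223-MDM33, a multicopy plasmid with MDM33 behind the galactose-inducible GAL1/10 promoter, or with the empty vector pYX223. Each transformed pool was recovered on glucose and replated on 2% galactose for 4 days or on 2% glucose for 2 days, so that sugar and time on the plate cannot be told apart. This gave 4 groups, namely MDM33 plasmid on galactose (MDM33 on), MDM33 plasmid on glucose (MDM33 off), empty vector on galactose and empty vector on glucose, each with 2 experiments. In experiment 1 every galactose pool carried one dye and every glucose pool the other, while experiment 2 held both dyes, which were averaged. All groups share the selection for the plasmid, and the 2 sugars of an experiment share their transformants, whose number per strain was not measured.

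The small subunit binds the messenger RNA, pairs it with initiator tRNA and decodes it. Most of its proteins are encoded in budding yeast by a pair of near-identical genes left by an ancient genome duplication, and deleting one copy is usually survivable because the other still makes the protein. Paralogs are nevertheless known to differ in expression level, and single deletions are known to slow growth to different degrees.

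The signal of a strain is the mean of its uptag and downtag spot densities, in arbitrary units, after the authors scaled each dye channel to the same total (channel totals 147379493 to 147666701). The signal thus stands for a part of the whole pool. Barcodes hybridise to differing degrees, so paralogs are compared by their changes and never by their levels. A strain was called detected in an experiment when at least 1 tag lay above the limit of its channel, which is the level that 99 in 100 original probes for the unlabelled tag stayed under. These limits ran from 785.7 to 3339.4 in the MDM33 galactose channels, against 185.3 to 601.0 in empty galactose, 175.9 to 836.6 in MDM33 glucose and 263.4 to 732.0 in empty glucose, and a signal under its limit gives an upper bound and no level. The strains lacking GAL3, the galactose sensor, or GAL4, the activator of the GAL genes, served as a check of induction. Their signals were 402345 and 74799 (GAL3) and 14414 and 207340 (GAL4) on MDM33 galactose, against 1887 and 11038 and against 4421 and 2832 on empty galactose, with no overlap, although neither passed the test used here (adjusted p = 0.0591 and 0.0770, limma). Both strains were also lower on empty galactose than on empty glucose (log2 difference -3.24 for GAL3 and -3.88 for GAL4). The contrast between the plasmids thus rests in part on low empty galactose values. With the MDM33 plasmid, galactose against glucose gave 4.09 for GAL3 and -0.04 for GAL4.

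Fewer small subunit strains were detected with MDM33 on than in any other group. On MDM33 galactose, 8 of the 47 strains (17.0%) were detected in both experiments, among them those lacking RPS12, RPS22A, RPS22B, RPS23B, RPS28A, RPS30A or RPS30B. On MDM33 glucose 26 of the 47 (55.3%) were detected in both experiments, on empty galactose 21 (44.7%) and on empty glucose 26 (55.3%). Among all 5526 strains the shares were 41.0%, 68.3%, 66.2% and 66.8% in the same order of groups. The members' share was below that of all strains in every group, the glucose groups included. Strains of the large (60S) subunit lay below the shares of all strains as well, with 17, 41, 31 and 32 of 73 detected in both experiments.

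The 2 experiments differed in this. On empty galactose 21 of the 47 strains (44.7%) were detected in experiment 1 and 39 (82.98%) in experiment 2, against 67.4% and 73.3% of all strains. On empty glucose the counts were 27 (57.4%) and 37 (78.7%), against 67.6% and 76.4% of all strains, and on MDM33 glucose they were 27 and 38, against 69.0% and 77.0%. In the 3 groups without induced MDM33 the members' share was thus at or above that of all strains in experiment 2 and below it in experiment 1. On MDM33 galactose it was below in both, with 15 of 47 (31.9%) in each experiment, against 56.9% and 47.3% of all strains. These shares are descriptions of 2 experiments and were not tested. A set of 8 strains, among them those lacking RPS6B, RPS16A, RPS18B, RPS21A, RPS24B or RPS29A, were detected with the empty vector on both sugars in experiment 2 and on neither sugar in experiment 1, which is 17.0% of the 47, against 219 of all strains (3.96%).

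**Figure D1:**
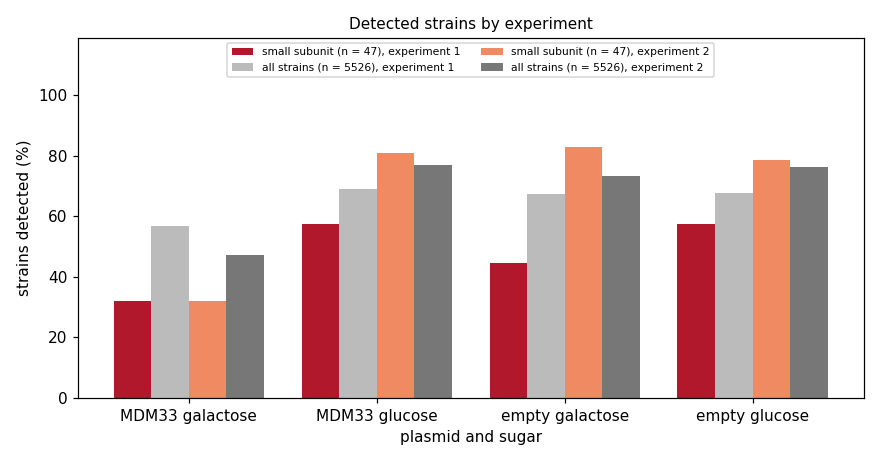
Percent of strains detected (vertical axis) in each plasmid and sugar group, for the 47 small subunit strains (red and orange bars) and all 5526 strains (light and dark grey bars) in experiments 1 and 2. On MDM33 galactose the small subunit bars stand at 31.9% in both experiments, against 56.9% and 47.3% for all strains. On empty galactose they stand at 44.7% and 82.98%, against 67.4% and 73.3%.

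The share of small subunit strains that were seen on glucose and again on galactose was read within each plasmid and experiment. With the MDM33 plasmid, 14 of 27 strains detected on glucose (51.9%) were also detected on galactose in experiment 1 and 14 of 38 (36.8%) in experiment 2. With the empty vector the counts were 20 of 27 (74.1%) and 33 of 37 (89.2%). Across all strains the shares were 80.8% and 60.9% with the MDM33 plasmid and 94.6% and 94.6% with the empty vector. With MDM33, 6 strains (lacking RPS4A, RPS8A, RPS17B, RPS18B, RPS27B or RPS28B) were detected in both experiments on glucose and in neither on galactose. With the empty vector the same pattern was seen for RPS1B and RPS9B. The share of all strains with this pattern was not counted. The limits were higher on MDM33 galactose (785.7 to 3339.4) than on MDM33 glucose (175.9 to 836.6). In experiment 1 on MDM33 galactose, the uptags of RPS8A (2718), RPS17B (2809), RPS18B (1533) and RPS28B (2174) were undetected. These signals would have exceeded every limit on MDM33 glucose.

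There were 6 strains detected in all 8 group and experiment values, those lacking RPS12, RPS22A, RPS22B, RPS28A, RPS30A or RPS30B. These 6 are 12.8% of the 47, against 39.3% of all strains. Another 4 strains, lacking RPS6A, RPS17A, RPS18A or RPS25B, were detected in none, which is 8.51% of the 47, against 19.7% of all strains. Rps22 is a protein of the body of the subunit, Rps28 sits in the head beside the exit of the messenger RNA, and Rps12 forms part of the beak of the head.

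**Figure D2:**
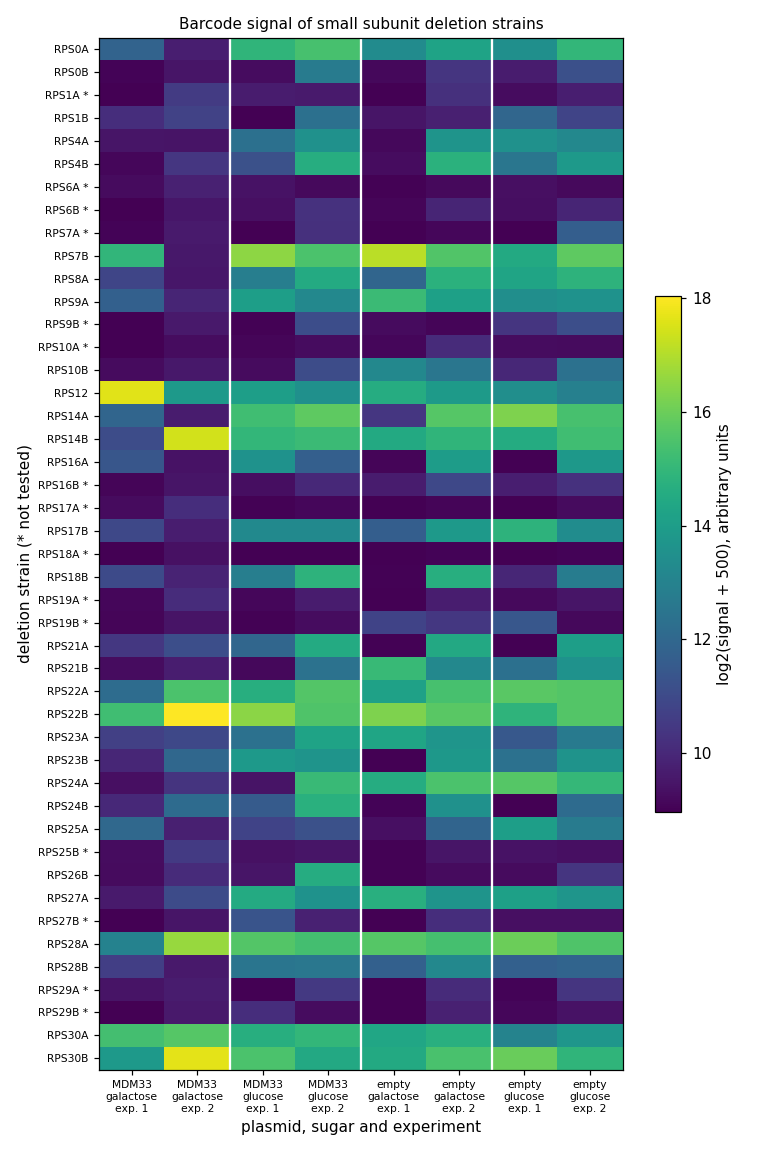
Signal of 45 of the 47 small subunit deletion strains (rows, paralogs next to each other) in the 4 groups and 2 experiments (columns), as log2(signal + 500) from dark (about 9, no signal) to yellow (18). Rows marked with an asterisk did not enter the test. Of the 30 tested rows, 23 have a fitted difference below 0 between MDM33 galactose and empty galactose, against 79.1% of all tested strains. Rows such as RPS12, RPS22B, RPS30A and RPS30B are bright on MDM33 galactose in at least 1 experiment.

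For the comparison between groups, 32 of the 47 strains entered the test, since their mean signal over the 8 values exceeded the mean detection limit (854.1). Across the whole pool 4074 strains entered. Values were compared as log2(signal + 500) by limma, which pools the spread of the 4 groups, and p-values were adjusted by Benjamini-Hochberg over all 4074 strains, with 0.05 as threshold. Adding 500 understates the change of weak strains. The 15 strains that did not enter lacked RPS1A, RPS6A, RPS6B, RPS7A, RPS9B, RPS10A, RPS16B, RPS17A, RPS18A, RPS19A, RPS19B, RPS25B, RPS27B, RPS29A or RPS29B. Their mean signals ran from 28.3 (RPS18A) to 606.5 (RPS19B), and the highest single value among them was 2751 (RPS7A, empty glucose, experiment 2).

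The main question is which strains differed between the plasmids on galactose. Against empty galactose, 2 of the 32 small subunit strains tested were lower on MDM33 galactose and none was higher, while 10.1% of all tested strains were called lower and 0.245% higher (412 and 10 of 4074). The 2 strains lacked RPS9A and RPS27A. At an unadjusted p under 0.05 there were 12 members (11 lower and 1 higher), or 37.5%, against 35.6% of all tested strains. The median log2 difference of the 32 strains was -1.27, with 24 below 0 (75%). That of all tested strains was -1.65, with 79.1% below 0. Large subunit strains gave 4 lower and none higher of 49 (median -1.32).

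Each channel was scaled to a fixed total, and the median of all strains moved with the scaling. Setting the 75th percentile of all probes equal gave medians of -0.77 for the members and -0.94 for all strains, and setting that of the labelled barcodes equal gave 0.67 and 0.66. Changes below are therefore to be read against the median of all strains. Neither scaling left a member called. Of all strains the first called 5 (4 higher and 1 lower) and the second 25 (25 higher and 0 lower). The many lower calls of the main fit thus depended on the scaling. The member median also rests on single experiments of the empty vector, at -3.11 without empty galactose experiment 1 and 0.32 without experiment 2, against -1.99 and -1.39 for all strains.

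The RPS9A strain (YPL081W) lacks one of 2 genes for Rps9, which lies at the entry of the messenger RNA channel in the body of the subunit and bears on decoding accuracy. Its signal was 2974.5 and 455 on MDM33 galactose in experiments 1 and 2, against 35510 and 17478.5 on empty galactose. With MDM33 off it was 16619 and 9013, and on empty glucose 10661 and 11964. The MDM33 galactose values were the lowest of the 8 and did not overlap any other group. The log2 difference between the plasmids on galactose was -3.80 (SE 0.92, n = 2 experiments per group, limma adjusted p = 0.0473), or -2.15 below the median of all strains. The signal came from 1 barcode, since the uptag read 5850 and 808, against 71012 and 34927 on empty galactose, and the downtag never exceeded 102. Its paralog RPS9B was too weak to test, with a highest value of 1755.

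The RPS27A strain (YKL156W) lacks one gene for Rps27, a small zinc-binding protein of the subunit. It gave 295.5 and 1624 on MDM33 galactose, against 26157 and 12336 on empty galactose. On MDM33 glucose the signal was 23109 and 11937 and on empty glucose 17553 and 12692. The 3 groups without induced MDM33 lay close together and MDM33 galactose stood below all of them. The log2 difference was -3.83 (SE 0.88, n = 2 per group, limma adjusted p = 0.0443), which is -2.18 from the median of all strains. Here the downtag carried the signal (591 and 2741, against 52171.5 and 24191 on empty galactose), and the uptag stayed at or below 893 in every group. Both calls were close to the threshold and neither held with the experiment as a block in the model, where 0 members and 200 of all strains were called. Leaving out any 1 replicate of the 3 other groups left 0 members and 0 of all 4074 strains called. Fits without an MDM33 galactose replicate keep 1 value of the group with the widest spread over all strains, so their calls are no support. With 1 replicate left out, the log2 difference ran from -4.74 to -2.87 for RPS9A and from -4.54 to -3.12 for RPS27A.

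**Figure D3:**
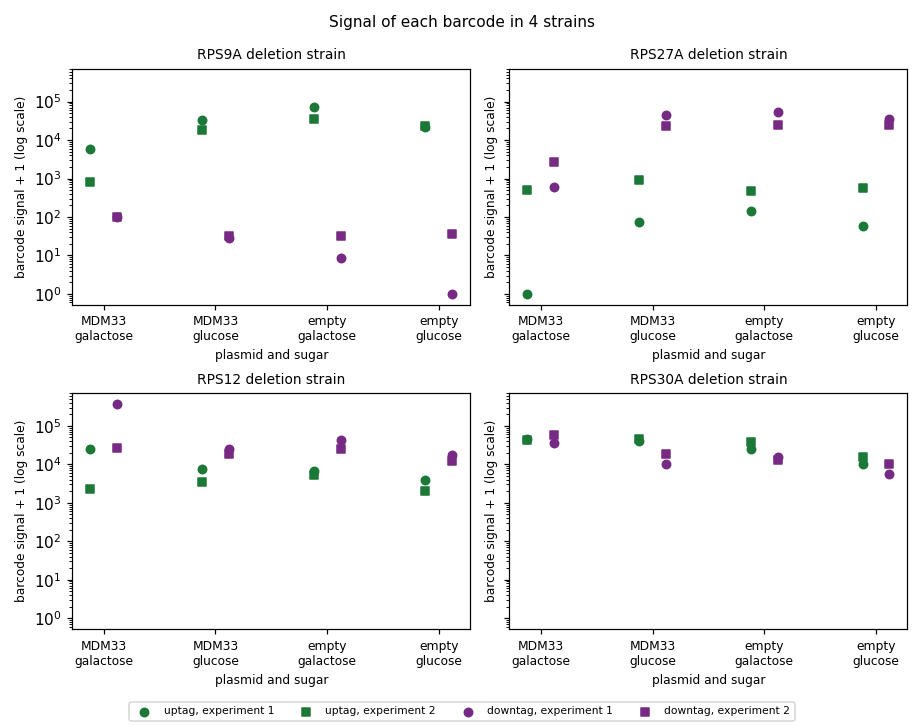
Uptag (green) and downtag (purple) signal plus 1 on a log axis for 4 deletion strains, in the 4 groups along the horizontal axis, with experiment 1 as circles and experiment 2 as squares. RPS9A is read by its uptag and RPS27A by its downtag, both lowest on MDM33 galactose. RPS30A is read by both tags, which all lie highest or near highest on MDM33 galactose, and RPS12 stands out in experiment 1 there (downtag 380694).

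The RPS24A strain (YER074W) had the lowest log2 difference of the 32 tested members. Its signal was 144 and 797 on MDM33 galactose, against 24062 and 45514 on empty galactose. The difference of -5.20 (SE 1.66) missed the threshold (limma adjusted p = 0.0765). This strain was also low on MDM33 glucose in experiment 1 (200 there and 34992 in experiment 2, against 50989 and 32401 on empty glucose). In experiment 1 it was thus weak with the MDM33 plasmid on both sugars.

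The RPS21B strain read 122 and 329 on MDM33 galactose, against 34096 and 8977 on empty galactose (log2 difference -4.66, SE 1.24, limma adjusted p = 0.0524). Rps21 contacts Rps0 on the solvent side of the subunit, and both are needed to mature the small subunit rRNA. Like RPS24A, this strain was weak on MDM33 glucose in experiment 1 (72.1), while it gave 4831 there in experiment 2. Its signal came from the uptag, and the downtag never exceeded 266.5.

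The RPS7B strain gave 30632.5 and 241 on MDM33 galactose, against 139886 and 48582 on empty galactose. Rps7 is a protein of the platform. Its 2 MDM33 galactose values differed far more from each other than the 2 values of any other group (22240 and 56838 on empty glucose, 92907 and 45389 on MDM33 glucose). The log2 difference of -4.11 (SE 1.66) was not called (limma adjusted p = 0.124).

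The RPS0A strain gave 3194 and 355 on MDM33 galactose, against 9999.9 and 18959 on empty galactose, and 29933 and 42810 on MDM33 glucose. These values did not overlap, and the log2 difference against empty galactose was -3.01 (SE 1.01, limma adjusted p = 0.0835). The RPS0A tags disagreed in size, at -0.27 and -3.66 for the uptag and -3.98 and -5.23 for the downtag in experiments 1 and 2. With uptags alone the difference was -1.97, or -0.11 from the median of all strains. With downtags alone it was -4.61, or -2.87 from that median. The RPS23A strain lacks a gene for Rps23, a protein of the decoding centre. It read 1150 and 1448.5 on MDM33 galactose, against 19816 and 12651 on empty galactose (log2 difference -3.19, SE 0.93, limma adjusted p = 0.0625). In RPS23A both tags were lower in both experiments, with log2 differences from -2.43 to -4.26.

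The RPS4A strain had signals of 213 and 199.9 on MDM33 galactose, both under the detection limits there, against 77.8 and 12525.5 on empty galactose. Rps4 is a protein of the body. With the MDM33 plasmid on glucose it read 4600 and 11454, and with the empty vector on glucose 11704 and 8919. The log2 difference between the plasmids was -1.96 (SE 1.39, limma adjusted p = 0.357) and rested on experiment 2, since the strain was not detected on empty galactose in experiment 1. Its paralog strain RPS4B followed the same course, with 54.2 and 854 on MDM33 galactose, against 117 and 27409 on empty galactose.

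At the other end, 8 of the 32 strains had a log2 difference above 0, and none of the 8 passed the test. Among all 4074 tested strains 850 were above 0. The RPS30A strain (YLR287C-A) gave 40477.5 and 50386 on MDM33 galactose, against 20073 and 25982 on empty galactose. It also read 25280 and 31996 on MDM33 glucose, against 7806 and 13048.5 on empty glucose. The signal was thus higher with the MDM33 plasmid on either sugar, with no overlap between plasmids on the same sugar. The log2 difference was 0.97 on galactose (SE 0.75, limma adjusted p = 0.399) and 1.45 on glucose (limma adjusted p = 1), and both experiments gave nearly the same value on galactose (0.99 and 0.94). Both tags shared the direction.

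RPS12 is the single-copy member, a protein of the head. Its deletion strain (YOR369C) gave 203133 and 14210 on MDM33 galactose, against 24350 and 15068 on empty galactose. On glucose it read 16425 and 11161 with the MDM33 plasmid and 10677 and 7153 with the empty vector. The log2 difference of 1.48 (SE 1.23, limma adjusted p = 0.433) came wholly from experiment 1 (3.04, against -0.08 in experiment 2). RPS30B ran the other way round, with 14471 and 206529 on MDM33 galactose, against 22088 and 43728 on empty galactose (log2 difference 0.82, SE 1.29, limma adjusted p = 0.700). The RPS1B strain, which lacks a gene for the platform protein Rps1, gave 649 and 1242.5, against 206 and 377 (log2 difference 0.85, SE 1.16, limma adjusted p = 0.656), and was detected in neither group.

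**Figure D4:**
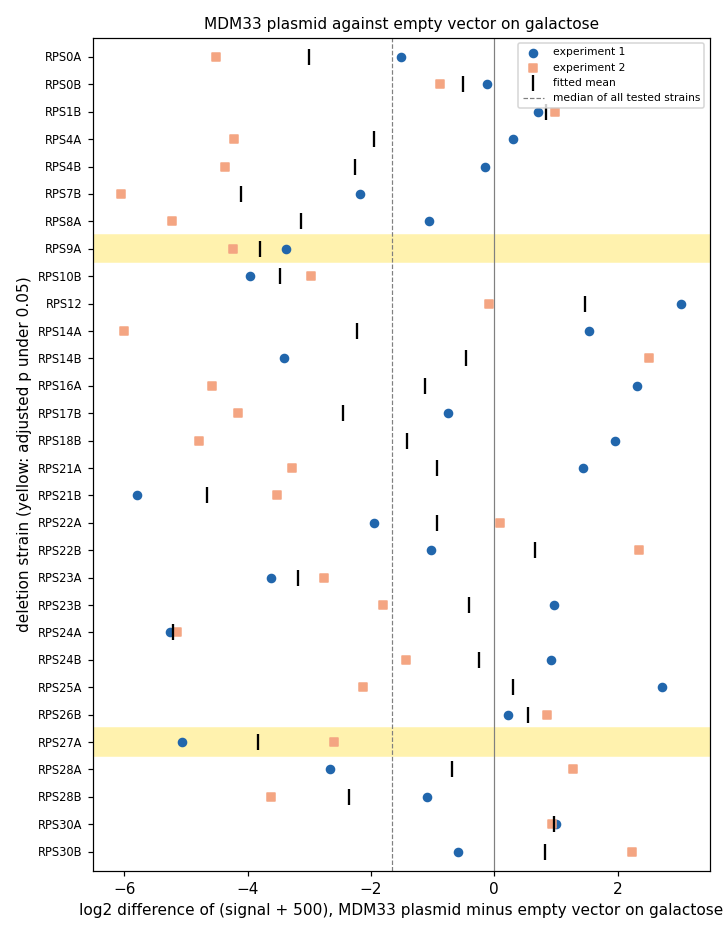
Log2 difference of (signal + 500), MDM33 plasmid minus empty vector on galactose (horizontal axis), for 30 of the 32 tested small subunit strains, in experiment 1 (circles), experiment 2 (squares) and as the fitted mean (bars). Yellow rows are RPS9A and RPS27A, the 2 strains called. The dashed line is the median of all tested strains (-1.65), and several strains such as RPS14A and RPS16A lie on opposite sides of 0 in the 2 experiments.

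Without any model, both MDM33 galactose values lay below both empty galactose values for 13 of the 47 strains (27.7%), against 38.4% of all 5526 strains, and above both for 5 (10.6%), against 12.4%. The 13 lower strains were RPS0A, RPS7B, RPS8A, RPS9A, RPS10B, RPS16B, RPS17B, RPS19B, RPS21B, RPS23A, RPS24A, RPS27A and RPS28B. The 5 higher strains included RPS1B, RPS6A, RPS17A and RPS30A, and of these 4 RPS30A alone was detected in MDM33 galactose or empty galactose.

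The remaining comparisons called no member. Between MDM33 galactose and MDM33 glucose, 0 of 32 members and 0% of all strains passed (limma, smallest adjusted p = 0.0603 for members and for all). At an unadjusted p under 0.05 there were 10 members (9 lower and 1 higher), and 37.8% of all strains. The member median was -2.39 and that of all strains -1.98. The members nearest the threshold were RPS0A (log2 difference -4.35) and RPS27A (-3.72, limma adjusted p = 0.0607). RPS14A had the lowest difference, -4.72, with 3434 and 307 on MDM33 galactose, against 38850 and 55554 on MDM33 glucose.

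Between empty galactose and empty glucose, 0 of 32 members and 0% of all strains passed (limma, smallest member adjusted p = 0.9998), and at an unadjusted p under 0.05 there was 1 member, against 1.87% of all strains. The medians were -0.13 for the members and -0.09 for all strains. Between the plasmids on glucose the counts were again 0 of 32 and 0% (limma, adjusted p = 1 for every member), with 0 members and 1.03% of all strains at an unadjusted p under 0.05. The medians were 0.26 and 0.02. The interaction, that is, the difference between the galactose effects with the 2 plasmids, also called 0 of 32 and 0% (limma, smallest adjusted p = 0.236), with 5 members and 18.6% of all strains at an unadjusted p under 0.05. In 7 of the 32 members the signal on galactose was below that on glucose with MDM33 and above it with the empty vector in both experiments, against 15.0% of all tested strains, and in 4 of the 7 one of these directions rests on undetected signals in experiment 1. These 5 comparisons share their groups, so their values are not independent.

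The members' spread between experiments was above that of the pool in 3 groups and below it on MDM33 galactose, as a description. The median absolute log2 difference between experiments 1 and 2 was 1.38 on MDM33 galactose, 1.03 on MDM33 glucose, 1.34 on empty galactose and 1.17 on empty glucose. For all tested strains it was 1.80, 0.64, 0.77 and 0.65. On empty galactose 23 of the 32 members were higher in experiment 2.

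Of the 24 paralog pairs, 22 had both strains on the array. In 10 pairs both strains were tested, in 9 pairs 1 strain, and in 3 pairs (RPS6, RPS19 and RPS29) neither. On MDM33 galactose, both paralogs were detected in both experiments for RPS22 and RPS30. By the same rule, the A strain alone was detected for 2 pairs, RPS28 among them, and the B strain alone for RPS23. In the other 17 pairs neither strain was detected in both experiments. Some of these strains were detected in 1 experiment, such as RPS14A and RPS14B. On empty galactose 4 pairs had both, 5 A alone, 6 B alone and 7 neither. On MDM33 glucose the counts were 7, 5, 5 and 5, and on empty glucose 8, 3, 5 and 6. Pairs with only 1 strain detected in both experiments were thus fewest on MDM33 galactose, where in most pairs neither strain met this rule.

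Whether paralog strains changed alike was read from the difference of their log2 changes, MDM33 galactose against empty galactose, A minus B, in each experiment. Over the 10 pairs, 5 differences were above 0 and 5 below, and 7 had the same direction in both experiments. For most of the 7, RPS0, RPS4, RPS21, RPS23 and RPS24 among them, the experiment 1 difference rests on a strain undetected on empty galactose. Both RPS22 strains were detected there. None of these differences was tested. The largest was RPS24, at -6.18 and -3.73 (mean -4.95, SE 2.08). Against the RPS24A signals given above, RPS24B gave 519.9 and 3958, against 36.4 and 11456 on empty galactose (log2 difference -0.25). The RPS24B strain was not detected in either empty vector group of experiment 1.

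For RPS21 the difference was 7.23 and 0.23 (mean 3.73, SE 2.92). The RPS21A strain gave 901 and 1785, against 18.9 and 21800.5 on empty galactose. In experiment 2 both RPS21 strains were thus lower on MDM33 galactose, with log2 differences of -3.29 for RPS21A and -3.52 for RPS21B.

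For RPS23 the difference was -4.59 and -0.96 (mean -2.77, SE 2.17). RPS23B gave 479.9 and 3591, against 2.33 and 13736 on empty galactose, and 14626 and 12497 on MDM33 glucose. It was not detected on empty galactose in experiment 1. The RPS0 pair differed by -1.38 and -3.63 (mean -2.50, SE 1.38), but RPS0B was weak. It gave 28.1 and 209 on MDM33 galactose, against 74.99 and 807 on empty galactose. It was not detected in either MDM33 galactose experiment, nor on empty galactose in experiment 1. In the 5 pairs with the smallest mean differences it ran from -1.78 (RPS14) to 1.66 (RPS28). The pairs RPS14, RPS28 and RPS30 changed direction between experiments. RPS14 had the widest swing, with 4.94 in experiment 1 and -8.50 in experiment 2. RPS14B gave 1663 and 175052 on MDM33 galactose, against 22498 and 30405 on empty galactose, and RPS14A gave 3434 and 307, against 859 and 51050. The RPS14B tags disagreed in experiment 1, where the log2 change was 0.39 for the uptag and -5.79 for the downtag. On empty galactose they read 2205 and 42790 there. The RPS4 pair differed by 0.46 and 0.15 (SE 1.14), of which the first says nothing, since neither strain was detected on MDM33 galactose or empty galactose in experiment 1.

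Genes whose products assemble, modify or bind the small subunit were read beside the members, from a list of 19 strains on the array (Asc1, Ltv1 and other assembly factors, chaperones and ligands). Of these, 11 were tested, and 0 were called in either direction between the plasmids on galactose (limma, 1 at an unadjusted p under 0.05). Their median log2 difference was -0.50. Of all tested strains 10.1% were called lower and 0.245% higher, with 35.6% at an unadjusted limma p under 0.05 and a median of -1.65. Detected in both experiments were 3 of 19 on MDM33 galactose, 9 on MDM33 glucose, 7 on empty galactose and 7 on empty glucose. Across all strains the shares were 41.0%, 68.3%, 66.2% and 66.8% in the same order. MDM33 galactose had the fewest among the members and among all strains as well.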

How the data were processed

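Barcode DNA was read on 2-colour Agilent arrays. Per the labels and the study's methods, the authors took background-corrected, trimmed-mean spot densities and scaled each of the 24 dye channels to a total of 147680000. These deposited intensities were used as given (14741 of 14767 annotated probes had values). The 24 columns of unscaled values were not used. A genome build is not given in the sources used here and no coordinates are printed. Gene names came from RefSeq by ORF (5086 strains named, 440 not).

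Per tag, the probe (original or mutated) with the highest mean signal was kept. Dyes were averaged within an experiment and then the tags. Strains with a mean above 854.1 entered limma 3.58.1 (R 4.3.3) on log2(value + 500), 4 groups together, with 4 residual degrees of freedom and 5 comparisons. The script was tested on simulated data in which a strain had the same spread in every group. In the real data the spread over all tested strains was widest on MDM33 galactose, so the simulation does not bear on the test there. Replicate numbers mark the study's replicate sets. The correlations of the experiment differences between groups ran from 0.0613 to 0.319, and the experiment as a block was an alternative. P-values measure the spread between the 2 experiments of a group, pooled over the 4 groups and moderated by limma (3.577 prior degrees of freedom). For MDM33 galactose, where all tested strains spread more (median 1.80, against 0.64 to 0.77 in the other groups), they therefore use a spread that is too small for many strains. With array weights the limma adjusted p of RPS9A was 0.235.

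Values per experiment were given for members past the test, the 5 lowest and 5 highest, RPS4A, RPS12 and the 5 pairs that differed most. Members, lists and rules were chosen with earlier results of these data known, and other members were named after their values were seen. Barcode sequences are not shown. The results of 1 pair are not reported here, although its strains stay in the counts and medians. Alternatives covered offset, scaling, filter, tag, probe, dye, array weights, the block and each replicate left out.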

Additional observations from a re-analysis of the deposited data

Results flagged for a closer look

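In 7 of the 32 tested small subunit strains (21.9%), the signal on galactose was below that on glucose with MDM33 and above it with the empty vector in both experiments. Among all tested strains 612 showed these directions (15.0%). The difference of the 2 effects was -3.92 for RPS9A, -4.41 for RPS23A, -3.08 for RPS28B, -2.83 for RPS24B, -2.65 for RPS21A, -2.45 for RPS10B and -2.41 for RPS16A on the log2 scale. None passed the interaction test (limma adjusted p from 0.236 for RPS9A and RPS23A to 0.671 for RPS16A). Some of these directions rest on signals that were not detected. In experiment 1 with the empty vector, RPS16A gave 45.8 on galactose, against 0 on glucose, RPS21A gave 18.9, against 0, and RPS24B gave 36.4, against 7.08. With MDM33 in experiment 1, RPS10B gave 100.8 on galactose, against 101.4 on glucose. For RPS28B the effect with the empty vector in experiment 1 was close to 0 (0.0156). The directions of RPS9A and RPS23A do not rest on such values with the empty vector.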

How the results depend on the processing

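The 2 members called between the plasmids on galactose became 0 with array weights, an offset of 100, the replicate block, either scaling to a 75th percentile, or uptags alone. With array weights and with uptags alone 0 of all strains were called, so the loss there was not particular to these members. Of all strains, in either direction, 82 were still called with the offset of 100 and 200 with the block. The 2 scalings left 5 and 25 of all strains called. Leaving out 1 replicate leaves 1 value in its group. Without an MDM33 galactose replicate, the group with the widest spread over all strains, more strains were called, higher ones among them. Calls of such fits are no support, here or below. With any replicate of the other 3 groups left out, neither call held. RPS9A lost its call under 12 and RPS27A under 11 of 21 alternatives, and both stayed below 0 in all of them. The block changed no other call of members.

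Between MDM33 galactose and MDM33 glucose the 0 members became 2 with downtags alone (410 of all strains) or with no filter (659 of all; RPS0A and RPS27A each time), 1 with an offset of 2000 (RPS0A; 333 of all), and 0 to 8 with 1 replicate left out (8 without MDM33 galactose replicate 1, with 1822 of all). The interaction gave 0 to 3 with 1 replicate left out (RPS0A, RPS7B and RPS9A without MDM33 galactose replicate 1, with 940 of all strains).

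On MDM33 galactose the 8 members detected in both experiments became 14 with a 95th percentile limit, 5 with both tags required, and 15 in either experiment alone. With both tags required MDM33 glucose gave 15 and empty glucose 16, and empty galactose gave 21 to 39 in a single experiment. Paralog pairs with the same direction fell to 3 of 9 with uptags alone, against 7 of 10.

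Log2 differences between the plasmids on galactose that turned above 0 were RPS21A (0.46 with the scaling to all probes and 0.83 with labelled barcodes), RPS23B (1.57 and 1.71 under these scalings and 0.30 with an offset of 100) and RPS24B (1.79 and 1.69 under these scalings, 0.34 with an offset of 100 and 0.47 with downtags alone). Leaving out 1 replicate gave -1.10 to 0.0897 for RPS0B, -4.21 to 0.29 for RPS4A, -0.42 to 3.37 for RPS12, -3.64 to 1.79 for RPS21A, -2.83 to 2.00 for RPS23B, -2.49 to 1.99 for RPS24B and -1.08 to 2.71 for RPS30B. Without empty galactose replicate 2 the sign turned for RPS0B, RPS4A, RPS21A, RPS23B and RPS24B. The empty galactose value then left, that of experiment 1, was undetected for each (74.99, 77.8, 18.9, 2.33 and 36.4 in this order). The cause was not tested.

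Signals under the channel limits, which reached 3339.4 on MDM33 galactose, give no level, and 2 experiments per group limit every test.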
